A study of Mus musculus with 11 samples.

Results

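The microRNAs (miRNAs) mmu-miR-196a, mmu-miR-196b, mmu-miR-10a and mmu-miR-10b, written below without the species prefix, were followed in mouse oviduct 24 h after treatment with lipopolysaccharide (LPS), the outer membrane glycolipid of Gram-negative bacteria that the receptor TLR4 senses. They were taken by probe name, with passenger-strand (star) forms left out, and are 4 of the 566 mouse miRNA probes counted. All 4 belonged to the 205 miRNAs detected, that is, counted above the mean plus 2 SD of a lane's negative control probes in at least 3 lanes, and each exceeded that bound in all 11 lanes. The mice were female CD1, an outbred strain, aged 6 to 8 weeks. Each received 1 injection into the peritoneum on the day of estrus. The 3 control mice received no LPS, the 4 low dose mice 2 µg and the 4 high dose mice 10 µg of LPS from Escherichia coli, and whole oviducts were taken, so muscle, epithelium, blood and immune cells were measured together. In such tissue, more cells of a type and more of a miRNA per cell cannot be told apart.

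Hox genes are arranged in 4 clusters in mammals, and their order within a cluster follows the place along the body axis where each is used. The female reproductive tract keeps part of this order in the adult, with Hoxa9 typical of the oviduct and Hoxa10 of the uterus. The miR-196 and miR-10 genes lie between or inside Hox genes and are transcribed with them in the embryo. miR-196 is known for directing cleavage of Hoxb8 messenger RNA in the mouse, and miR-10b for repressing HOXD10 in human breast cancer cells. In human endothelial cells miR-10a is known to dampen signalling to NF-kB, the transcription factor that LPS activates.

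The mature sequences are shown because the members fall into 2 pairs whose probes must tell apart RNAs of nearly the same sequence. They are RefSeq sequences of assembly GRCm38.p6, matched by miRNA name for all 4 members, written 5′ to 3′ with the seed, bases 2 to 8, in capitals.
miR-196a: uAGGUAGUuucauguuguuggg
miR-196b: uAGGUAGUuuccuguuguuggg
miR-10a: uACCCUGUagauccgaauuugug
miR-10b: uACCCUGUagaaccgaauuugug
Both miR-196 members have the seed AGGUAGU and are 22 bases long, and both miR-10 members have the seed ACCCUGU and are 23 bases long. Counted from the 5′ end of the first named, miR-196a and miR-196b differ by A12C and miR-10a and miR-10b by U12A, so each pair differs at 1 base, outside the seed. Cross-hybridisation between the probes of a pair was not tested.

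Mature miR-196a is encoded at 2 places on the plus strand, at chr11:96265187-96265208 and at chr15:102973365-102973386. The hairpins they are cut from are shown, with mature miR-196a in capitals, because they differ outside it and the probe reads the mature form.
Mir196a-1: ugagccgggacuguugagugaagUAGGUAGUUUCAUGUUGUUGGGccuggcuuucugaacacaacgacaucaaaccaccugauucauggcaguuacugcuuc
Mir196a-2: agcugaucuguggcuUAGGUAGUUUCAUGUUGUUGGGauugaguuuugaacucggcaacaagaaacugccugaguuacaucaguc
The counts therefore cannot say which of the 2 genes gave the miR-196a measured. In the RefSeq annotation, Mir196a-1 lies between the coding genes Hoxb13 and Hoxb9 and within the span of the predicted gene Gm51876, and Mir196a-2 lies between Hoxc10 and Hoxc9. Mature miR-196b is at chr6:52230129-52230150 on the minus strand, between Hoxa9 and Hoxa10 and within the span of Gm52902. Mature miR-10a is at chr11:96317186-96317208 on the plus strand, inside the span of Hoxb3 and with Hoxb5 and Hoxb4 as the nearest coding genes on either side. Mature miR-10b is at chr2:74726074-74726096 on the plus strand, inside the spans of Hoxd3 and Hoxd4. The hairpins of Mir196a-1 and Mir10a are 51.9 kb apart, so a member of each pair shares the Hoxb cluster.

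Counts came from the nCounter assay, in which each miRNA is ligated to a tag, hybridised to a fluorescent barcode and counted without amplification. Total miRNA counts were 500224 to 631334 in control lanes, 537903 to 684771 in low dose lanes and 451323 to 580130 in high dose lanes, and the detected miRNAs took 98.0% to 98.5% of them. Lanes were filled in group order, so an effect of lane position cannot be told apart from one of treatment. Each mouse was a separate animal per the labels. Probes bind with unequal strength, so counts of different probes are not molar levels. Normalized counts below are counts scaled by trimmed mean of M-values (TMM) over the detected miRNAs.

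Over all 11 mice miR-10a had the highest count of the 4, 2746 ± 332 normalized counts (SD, n = 11), and ranked 41st among the 205 detected miRNAs. miR-196b followed with 1204 ± 283 at rank 60, and miR-10b with 1107 ± 134 at rank 62. miR-196a had 219 ± 94.9 and rank 125. In shares of all miRNA counts these were 0.478% for miR-10a, 0.212% for miR-196b, 0.193% for miR-10b and 0.039% for miR-196a. The order within the middle of the list changed between groups, since miR-10b at rank 60 stood above miR-196b at rank 72 in controls, and miR-196b stood above miR-10b at both doses. The counts of miR-10a were 18.4 to 45.9 times the negative control bound of their lane, and those of miR-196b 8.94 to 23.5 times. miR-196a was far closer to it, at 1.33 to 2.15 times in controls and 1.24 to 5.50 times over all lanes.

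Both miR-196 members were higher in the oviducts of LPS-treated mice, and neither miR-10 member differed detectably from control. miR-196b rose at both doses, by 1.57-fold at 2 µg and 1.64-fold at 10 µg. miR-196a rose 2.13-fold at 10 µg. At 2 µg it stood 2.04-fold above control without passing the test. Of the 4 members, 1 passed at the low dose and 2 at the high dose, all higher, where 5.85% and 18% of the 205 detected miRNAs passed in either direction and 3.41% and 10.2% were called higher.

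**Figure D1:**
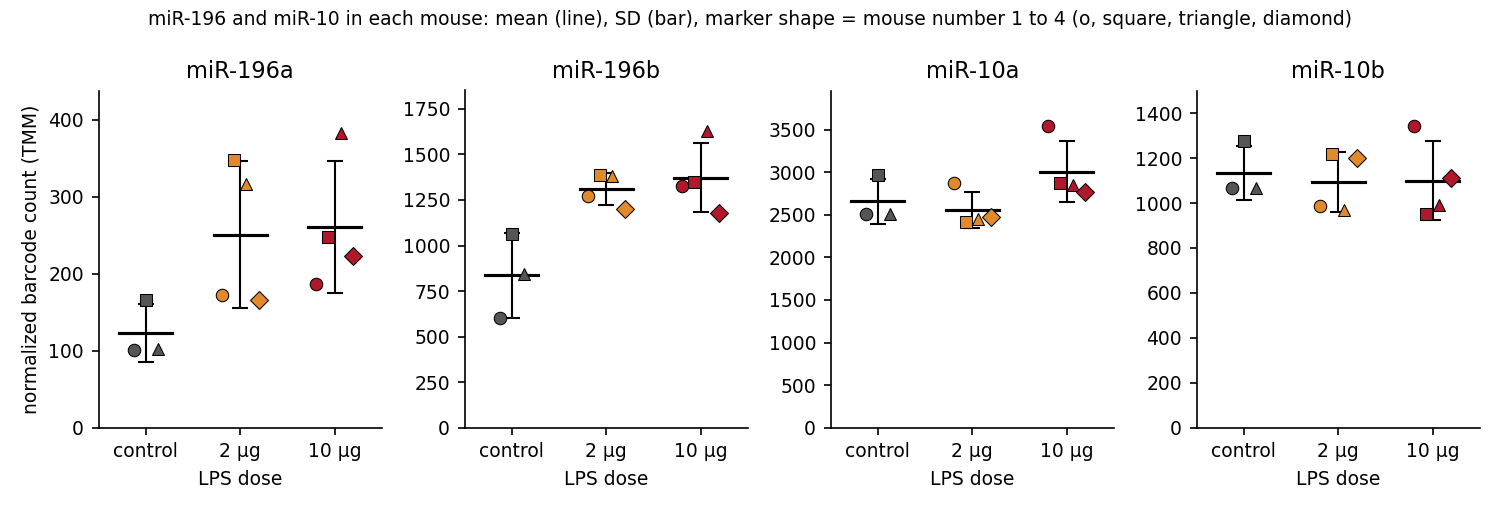
Normalized barcode counts (TMM, vertical axis from 0) of miR-196a, miR-196b, miR-10a and miR-10b by LPS dose, 1 point per mouse (3 control, 4 at 2 µg, 4 at 10 µg), with the group mean as a line and the SD as a bar. All LPS-treated mice lie above the highest control mouse for miR-196b, while the groups overlap for miR-10a and miR-10b.

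miR-196b, the miRNA of the Hoxa9 to Hoxa10 interval, was counted 629, 938 and 816 times in control mice 1, 2 and 3. It was counted 1330, 1361, 1644 and 1278 times in low dose mice 1 to 4, and 1058, 1378, 1692 and 1142 times in high dose mice 1 to 4. All 8 LPS-treated mice thus exceeded the highest control mouse before any scaling. After scaling, the controls stood at 601, 1066 and 842 normalized counts, the low dose mice at 1273, 1389, 1379 and 1201, and the high dose mice at 1328, 1351, 1631 and 1177. Groups given either dose did not overlap the controls, as was the case for 10.7% of detected miRNAs, higher, at the low dose and 13.7% at the high dose. Means were 837 ± 232 in controls (SD, n = 3), 1310.4 ± 90.0 at the low dose (n = 4) and 1372 ± 189 at the high dose (n = 4). The log2 change was 0.65 ± 0.17 SE at the low dose (95% interval 0.28 to 1.02, edgeR adjusted p = 0.0408) and 0.71 ± 0.17 SE at the high dose (0.34 to 1.09, edgeR adjusted p = 0.0122).

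Of the 3 groups, the controls varied most in miR-196b. Their coefficient of variation was 27.8%, where counting alone would give 3.55%. The low dose mice had 6.87% and the high dose mice 13.8%. The call at the high dose held without any 1 of the 11 mice. It was lost without low dose mice 3 and 4 and high dose mouse 2 together, the 3 lanes with the most counts of one negative control probe (log2 change 0.73, edgeR adjusted p = 0.0514), and with scaling to the 4 mRNA probes (0.42, edgeR adjusted p = 0.455). The call at the low dose was lost in 8 of the 11 fits that leave out 1 mouse. The edgeR adjusted p was 0.0911 without control mouse 1, which was the lowest, and 0.105 without control mouse 3. It was 0.0538, 0.0888, 0.0937 and 0.0652 without low dose mouse 1, 2, 3 or 4, and 0.0507 and 0.0577 without high dose mouse 1 or 2, which enter through the shared spread. The log2 change stayed between 0.46 and 0.86 in these fits. Across the 3 groups miR-196b passed (edgeR adjusted p = 0.0262), as did 13.7% of detected miRNAs, and lost this call without control mouse 1 (0.0885) or control mouse 3 (0.0989).

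miR-196a, encoded in the Hoxb and Hoxc clusters, was counted 106, 146 and 99 times in control mice 1, 2 and 3. The low dose mice had 180, 341, 377 and 177 counts and the high dose mice 149, 253, 397 and 216. The lowest LPS-treated mouse, high dose mouse 1, exceeded control mouse 2 by 3 counts, and its lane had the lowest miRNA total. In normalized counts the controls stood at 101, 166 and 102, the low dose mice at 172, 348, 316 and 166, and the high dose mice at 187, 248, 383 and 223. No LPS-treated mouse fell below the highest control, but low dose mouse 4 and control mouse 2 both rounded to 166. Low dose mouse 4 also had the highest negative control bound of any lane, 143, against which its miR-196a count of 177 was 1.24 times as high.

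Group means of miR-196a were 123 ± 37.0 normalized counts in controls (SD, n = 3), 251 ± 94.9 at the low dose (n = 4) and 260.1 ± 85.5 at the high dose (n = 4). The log2 change was 1.09 ± 0.32 SE at the high dose (95% interval 0.39 to 1.79, edgeR adjusted p = 0.0324). At the low dose it was 1.03 ± 0.32 SE (0.33 to 1.73, edgeR adjusted p = 0.074). The LPS-treated mice fell into no tight group, with values 2.09-fold apart at the low dose and 2.05-fold apart at the high dose. The coefficients of variation of 37.9% and 32.9% compare with 6.10% and 6.28% from counting alone. Across the 3 groups miR-196a did not pass (edgeR adjusted p = 0.0697). The high dose call was lost in 5 of the 11 fits without 1 mouse, with edgeR adjusted p of 0.116 without control mouse 1, 0.113 without control mouse 3, 0.0536 without high dose mouse 2, 0.0711 without high dose mouse 3 and 0.0518 without high dose mouse 4. It was also lost without the 3 lanes with the most counts of one negative control probe, low dose mice 3 and 4 and high dose mouse 2 (log2 change 1.12, edgeR adjusted p = 0.0722).

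No difference between 2 µg and 10 µg passed the test for either miR-196 member. High against low dose, the log2 difference was 0.06 ± 0.28 SE for miR-196a (95% interval -0.55 to 0.66, edgeR adjusted p = 0.958) and 0.07 ± 0.16 SE for miR-196b (-0.27 to 0.40, edgeR adjusted p = 0.925). Scaling to the mRNA reference probes turned both signs. The intervals do not show the 2 doses to be alike, since that of miR-196a runs from -0.55 to 0.66. Over all detected miRNAs 0.488% passed between the doses.

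miR-10a, the miRNA inside Hoxb3, was counted 2623, 2606 and 2427 times in the controls, 2997, 2371, 2917 and 2632 times at the low dose and 2818, 2929, 2960 and 2680 times at the high dose. After scaling these were 2508, 2962 and 2505, then 2868, 2420.0, 2447 and 2473, then 3538, 2871, 2853 and 2763. The groups overlapped, and high dose mouse 1 stood alone at the top. Means were 2658 ± 263 in controls (SD, n = 3), 2552 ± 212 at the low dose and 3006 ± 357 at the high dose (n = 4 each). The log2 change was -0.06 ± 0.11 SE at the low dose (95% interval -0.31 to 0.19, edgeR adjusted p = 0.78) and 0.18 ± 0.12 SE at the high dose (-0.07 to 0.43, edgeR adjusted p = 0.292). The high dose stood 0.24 ± 0.11 SE above the low dose (0.01 to 0.47, edgeR adjusted p = 0.371). Without high dose mouse 1 that difference was 0.15, and the change from control 0.09.

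miR-10b, the miRNA inside Hoxd3 and Hoxd4, was counted 1114, 1121 and 1034 times in the controls, 1030, 1192, 1154 and 1275 times at the low dose and 1070, 970, 1029 and 1078 times at the high dose. After scaling these were 1065, 1274 and 1067, then 986, 1217, 968 and 1198, then 1343, 951, 992 and 1111. Values of the 3 groups were interleaved. Means were 1135 ± 120.0 in controls (SD, n = 3), 1092 ± 134 at the low dose and 1099 ± 176 at the high dose (n = 4 each). The log2 change was -0.06 ± 0.14 SE at the low dose (95% interval -0.36 to 0.25, edgeR adjusted p = 0.814) and -0.05 ± 0.14 SE at the high dose (-0.35 to 0.26, edgeR adjusted p = 0.834). Between the doses it was 0.01 ± 0.13 SE (edgeR adjusted p = 0.991).

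For the miR-10 pair the intervals bound what could have been missed. Relative to the other detected miRNAs, a change of 1 log2 unit in miR-10a or miR-10b at either dose lay outside the 95% intervals, which ran no further than -0.36 and 0.43. Signs of these small changes depended on the scaling. Scaling to the positive controls moved the median of all detected miRNAs up by 0.18 at the low dose, and the low dose values of miR-10a and miR-10b then became 0.13 and 0.14.

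**Figure D2:**
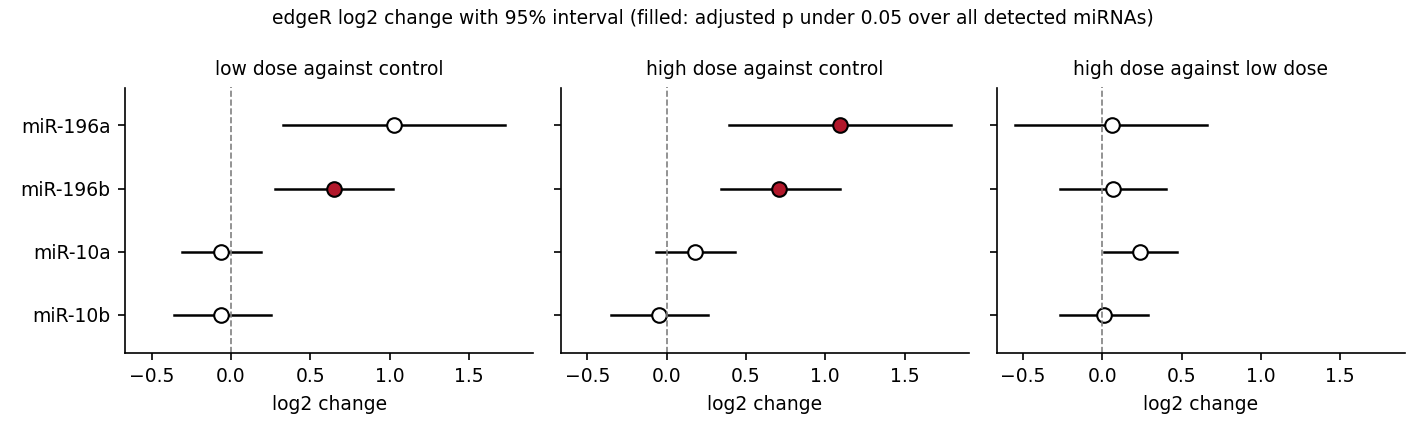
Log2 change of each member (horizontal axis, point with 95% interval) for low dose against control, high dose against control and high dose against low dose, from the edgeR fit to 11 mice. Filled points, adjusted p under 0.05, are miR-196b at both doses (0.65 and 0.71) and miR-196a at the high dose (1.09).

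**Figure D3:**
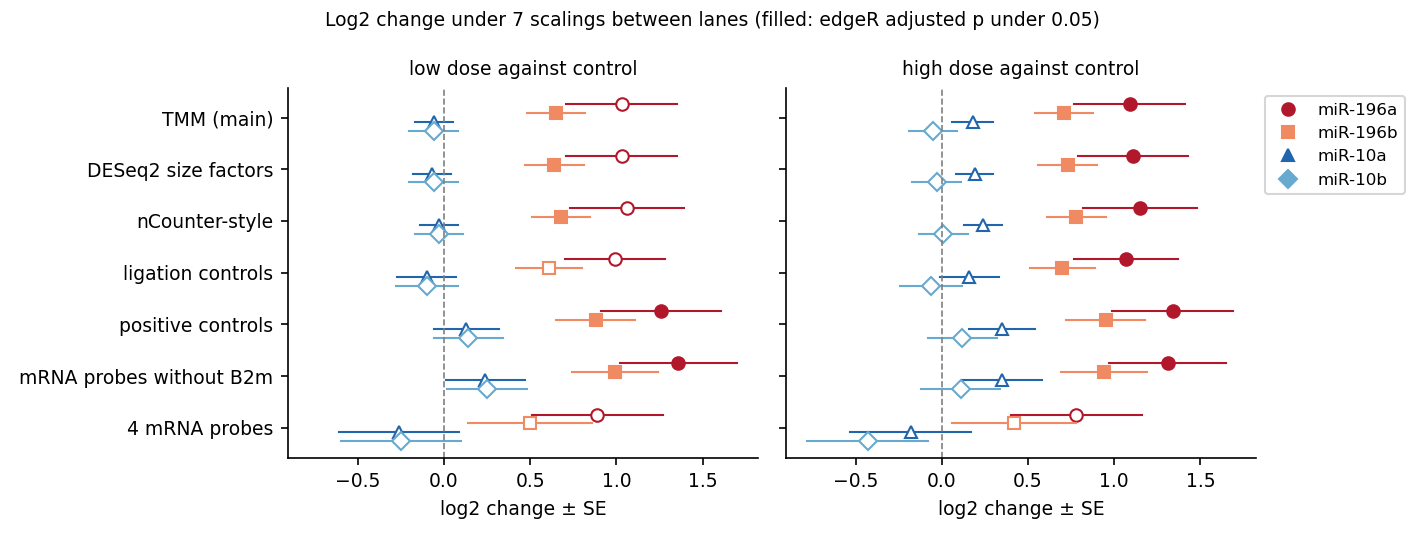
Log2 change with SE (horizontal axis) of the members at each dose under 7 ways of scaling lanes. Both miR-196 members stay to the right of 0 in every row, from 0.42 to 1.36 over both doses, whereas miR-10a and miR-10b move to either side of 0 with the scaling.

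Ratios of 2 probes within a mouse need no scaling between lanes. Of 6 such ratios, those within each pair were in the design, and the 4 between pairs were added after seeing the data. The exact permutation test of the one-way F statistic used all 11550 arrangements of the 11 mice, two-sided by construction.

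In the controls, miR-196b was counted 0.24, 0.36 and 0.336 times as often as miR-10a. The ratio was 0.444, 0.574, 0.564 and 0.486 in the low dose mice and 0.375, 0.47, 0.572 and 0.426 in the high dose mice. All 8 LPS-treated mice lay above all 3 controls, although high dose mouse 1 came within 0.06 of control mouse 2 on the log2 scale, at -1.41 against -1.47. The mean log2 ratio rose from -1.70 ± 0.31 in controls (SD, n = 3) to -0.96 ± 0.18 at the low dose and -1.13 ± 0.26 at the high dose (n = 4 each; exact permutation p = 0.009, adjusted over 6 ratios 0.0395).

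Against miR-10b the same order appeared. The controls had 0.565, 0.837 and 0.789 counts of miR-196b per count of miR-10b, the low dose mice 1.29, 1.14, 1.42 and 1.00, and the high dose mice 0.989, 1.42, 1.64 and 1.06. The mean log2 ratio was -0.47 ± 0.31 in controls (SD, n = 3), 0.27 ± 0.22 at the low dose and 0.32 ± 0.35 at the high dose (n = 4 each; exact permutation p = 0.0132, adjusted over 6 ratios 0.0395). These 2 tests were chosen after the rise of miR-196b had been seen and are not separate evidence of it. They also rest on few mice. Without control mouse 1 the exact permutation adjusted p was 0.23 for each. The call against miR-10a held in 3 of the 11 leave-one-out tests, without control mouse 2 (0.0381), high dose mouse 1 (0.03) or high dose mouse 3 (0.02). The call against miR-10b held in 2, without high dose mouse 1 (0.03) or high dose mouse 3 (0.0471). Without 1 of the other mice the adjusted p was 0.05 to 0.0857 for either ratio, control mouse 1 aside.

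For miR-196a the ratio to miR-10a had means of -4.47 ± 0.27, -3.43 ± 0.64 and -3.58 ± 0.55 on the log2 scale in controls, at 2 µg and at 10 µg (SD, n = 3, 4 and 4; exact permutation p = 0.081, adjusted 0.122). Its ratio to miR-10b had means of -3.24 ± 0.26, -2.20 ± 0.58 and -2.12 ± 0.62 (exact permutation p = 0.0648, adjusted 0.122). Neither passed, although 7 of 8 LPS-treated mice lay above the highest control for the ratio to miR-10a and 8 of 8 for that to miR-10b. The spread of the LPS-treated mice was wider than that of the controls in both. How often ratios of other probes separate the groups was not examined.

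**Figure D4:**
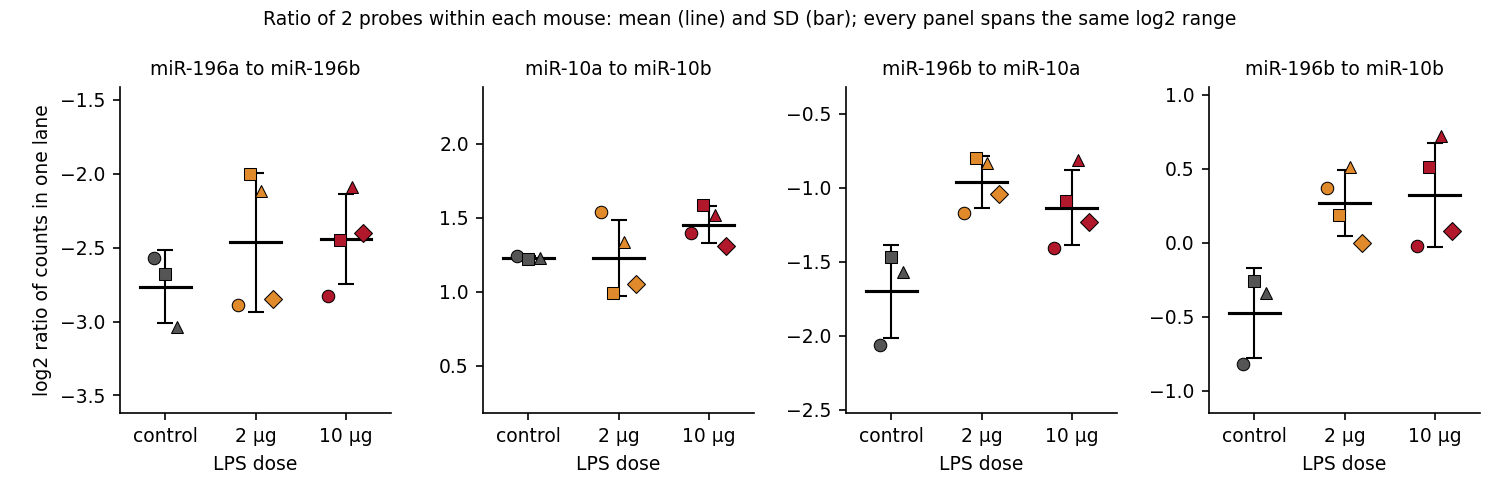
Log2 ratio of the counts of 2 probes in the same lane (vertical axis), by LPS dose, 1 point per mouse with the group mean as a line and the SD as a bar. The ratios of miR-196b to miR-10a and to miR-10b lie higher in all 8 LPS-treated mice than in the 3 controls, and the 3 control points of miR-10a to miR-10b nearly coincide.

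Within the pairs, no ratio differed detectably between groups. miR-196a was counted 0.169, 0.156 and 0.121 times as often as miR-196b in the controls, 0.135, 0.251, 0.229 and 0.138 times at the low dose and 0.141, 0.184, 0.235 and 0.189 times at the high dose. The groups overlapped, with 5 of the 8 LPS-treated mice above the highest control and the others inside the control range. Its log2 means were -2.77 ± 0.25, -2.46 ± 0.47 and -2.44 ± 0.30 (SD, n = 3, 4 and 4; exact permutation p = 0.47). The fold change of miR-196a, larger than that of miR-196b, was thus not shown to differ from it.

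miR-10a was counted 2.35, 2.32 and 2.35 times as often as miR-10b in the 3 controls. The low dose mice had 2.91, 1.99, 2.53 and 2.06 and the high dose mice 2.63, 3.02, 2.88 and 2.49. All 4 high dose mice thus lay above the controls, and the low dose mice lay on either side. The log2 means were 1.23 ± 0.01, 1.23 ± 0.26 and 1.46 ± 0.13 (SD, n = 3, 4 and 4; exact permutation p = 0.181, adjusted over the 2 ratios within pairs 0.362). Leaving out 1 mouse gave exact permutation adjusted p of 0.0505 to 0.561, the lowest without low dose mouse 1, and none passed. The control SD of 0.01 was below the 0.05 that counting alone gives, and so understates how much control mice can vary.

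Among the 8 LPS-treated mice, those with more miR-196a tended to have more miR-196b. Low dose mice 2 and 3 and high dose mouse 3 were the 3 highest for both. Over normalized log2 counts Pearson's r was 0.79 (exact permutation p = 0.0125, adjusted over 2 pairs 0.025) and Spearman's rho 0.86 (exact permutation p = 0.0107, adjusted 0.0214). Without the 2 mice farthest from the median of miR-196a, r was 0.58 (exact permutation p = 0.233), which did not pass with the 6 mice left. Both values of a mouse share its lane and its scaling factor, and cross-hybridisation between the 2 probes was not tested. The r of other pairs of detected miRNAs was not compared, so this r is not shown to be particular to the pair. These correlations were not in the design. For miR-10a and miR-10b r was 0.26 (exact permutation p = 0.547) and rho -0.10 (exact permutation p = 0.84), and r was -0.43 (exact permutation p = 0.386) without the 2 mice farthest from the median of miR-10a.

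**Figure D5:**
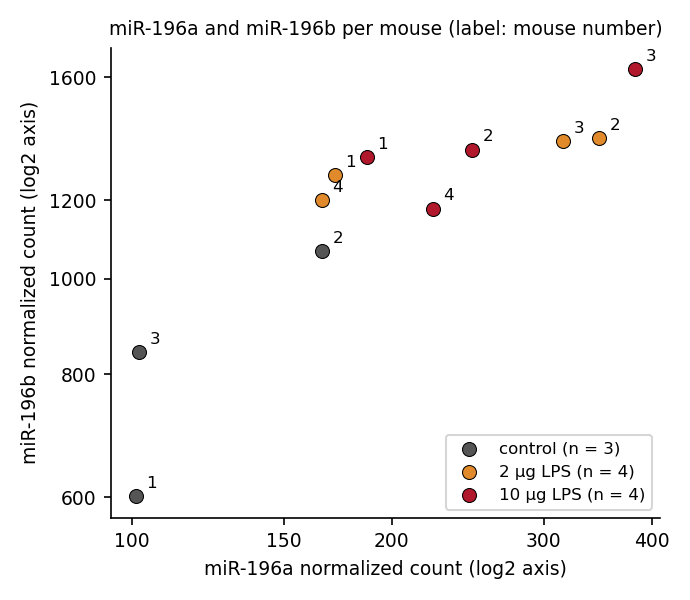
Normalized counts of miR-196a (horizontal, log2 axis) against miR-196b (vertical, log2 axis), 1 point per mouse, coloured by group and numbered by mouse. The 3 controls lie at 601 to 1066 for miR-196b and the 8 LPS-treated mice at 1177 to 1631, with high dose mouse 3 highest for both miRNAs.

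The miRNAs whose profile over the 11 mice was most like each member were found by the root mean square difference of log2 normalized counts, each centred on its own mean, among the other 204 detected miRNAs. For miR-196a the nearest was miR-196b (0.34), followed by miR-222 (0.39), miR-421 (0.44), miR-21 (0.45) and miR-374 (0.48). For miR-196b the nearest were miR-421 (0.21), miR-21 (0.26), miR-222 (0.26), miR-30d (0.27) and miR-467f (0.28), with miR-196a at place 25. In all, 3 miRNAs were in both lists, miR-421, miR-21 and miR-222. Of these, miR-21 and miR-222 are known to be induced by inflammatory signals in several cell types. The distance keeps the group differences, so miRNAs that are higher after LPS lie near each other, and the shared neighbours are no separate evidence. Log2 changes at the low and high dose were 0.91 and 0.93 for miR-222, 0.52 and 0.47 for miR-21, and 0.54 and 0.54 for miR-421. For miR-10a the nearest were miR-192 (0.10), miR-200b (0.11), miR-126-3p (0.12), miR-1839-5p (0.13) and miR-200c (0.14), and for miR-10b they were miR-126-3p (0.10), miR-125a-5p (0.12), miR-25 (0.13), miR-136 (0.14) and miR-181a (0.14). The 2 members of the miR-10 pair differed from each other by 0.19 and were at places 31 and 28 of each other's order. A miRNA that varies little is near every other that varies little, so the short distances around the miR-10 pair go with its small spread, a coefficient of variation of 12.1% over the 11 mice for each.

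Relatives in sequence are shown because they share runs of letters with the members at shifted positions. let-7c carries AGGUAGU, the miR-196 seed, at bases 3 to 9 instead of 2 to 8. miR-10a shares the 11-base run GUAGAUCCGAA with miR-100, at bases 7 to 17 of the former and 6 to 16 of the latter. Seeds, bases 2 to 8, are in capitals.
miR-99a: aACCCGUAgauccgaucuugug
miR-100: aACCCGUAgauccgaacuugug
let-7c: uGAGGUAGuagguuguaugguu
The miR-99/100 family, often grouped with miR-10, had 3 detected members. The edgeR test called 0 of 3 at either dose or between the doses, with 1, 1 and 0 at an unadjusted p under 0.05, and DESeq2 called 0, 1 and 0. Over all 205 detected miRNAs edgeR called 12, 37 and 1, with 56, 68 and 27 unadjusted, and DESeq2 called 20, 39 and 4. Their median log2 change was -0.25 at the low dose and -0.11 at the high dose, beside -0.00 and -0.03 over all detected miRNAs. miR-100 stood at 7196 ± 164 normalized counts in controls (SD, n = 3), 6043 ± 258 at the low dose and 6684 ± 1115 at the high dose (n = 4 each). miR-99b stood 0.38 ± 0.12 SE above control at the high dose (edgeR adjusted p = 0.0503), opposite in sign to miR-99a at -0.21 ± 0.13 SE.

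The let-7 family, which includes miR-98 and represses growth-promoting genes in differentiated tissue, had 9 detected members. At the low dose edgeR called 0 of 9, with 1 at an unadjusted p under 0.05, and DESeq2 called 0. Over all 205 detected miRNAs these counts were 12, 56 and 20. At the high dose 1 of 9 was called, let-7c, which rose from 20658 ± 2006 normalized counts in controls to 33084 ± 6059 (SD, n = 3 and 4), a log2 change of 0.68 ± 0.14 SE (edgeR adjusted p = 0.00404). The edgeR test called 18% of all detected miRNAs at this dose. Of the 9, 3 had an unadjusted p under 0.05, beside 68 of the 205 detected miRNAs. DESeq2 called 2 of the 9, beside 39 of the 205. The family's median log2 change was 0.03 and 0.09 at the 2 doses. Of 6 further listed products of the Hox clusters, the 4 star forms of the members had no probe among those used here. miR-615-3p and miR-615-5p, from the Hoxc cluster, were above the negative control bound in 0 of 11 lanes, with 6 to 34 counts and 2 to 17 counts, so they were not detectable at this depth.

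Marker miRNAs of the cell types in the tissue gave the makeup beside which the rise of miR-196 stood. The edgeR test called 0 of 2 smooth muscle, 0 of 5 epithelial, 0 of 4 ciliated cell and 0 of 4 leukocyte markers at either dose. Over all 205 detected miRNAs it called 5.85% at the low dose and 18% at the high dose, so short lists can hold none. An unadjusted p under 0.05 was reached by 56 and 68 of the 205, and DESeq2 called 20 and 39. At an unadjusted p under 0.05 there was 1 epithelial and 1 leukocyte marker at the low dose and none of the 4 lists' markers at the high dose, and DESeq2 called 1 epithelial marker at the low dose. Summed leukocyte markers (miR-142-3p, miR-142-5p, miR-223 and miR-150) were 3582 to 4386 normalized counts in controls, 4046 to 4581 at the low dose and 3426 to 3726 at the high dose. Summed epithelial markers (miR-141, miR-429 and 3 miR-200 miRNAs) were 34269 to 36103, 28085 to 36880.2 and 33523 to 38159. Smooth muscle markers (miR-143 and miR-145) were 42288 to 54233, 40519.7 to 58621 and 40614 to 50989, and ciliated cell markers 23507 to 33972, 21919 to 28497 and 22579.6 to 28928. Of the 2 endothelial markers, miR-126-5p rose at the high dose (0.71 ± 0.14 SE, edgeR adjusted p = 0.00251) while miR-126-3p stood at -0.02, and their sum was 4840.4 to 6182 in controls, 5124 to 5738 at the low dose and 5329 to 6957 at the high dose. The part of any cell type in the miR-196 rise was not tested. miR-122 of liver and miR-124 and miR-9 of neurons exceeded the bound in no lane, and edgeR called 0 of 2 erythroid and 0 of 2 detected skeletal and heart muscle markers at either dose. At an unadjusted p under 0.05 there were 1 erythroid marker at the low dose, also called by DESeq2, and 2 muscle markers at the high dose, where DESeq2 called 0. These 2 stood below control, miR-1 at -0.78 ± 0.33 SE (edgeR adjusted p = 0.122) and miR-133a at -0.34 ± 0.14 SE (edgeR adjusted p = 0.112). Summed skeletal and heart muscle markers ranged from 1088 to 1252 in controls, 997 to 1488 at the low dose and 448 to 1156 at the high dose. Summed erythroid markers ranged from 1343 to 4078 in controls, 1806 to 5291 at the low dose and 2159.5 to 3057 at the high dose.

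B2m, the light chain of MHC class I molecules and a gene that interferons induce, was the mRNA reference probe farthest from its control level, a difference described here and not tested. Scaled to the positive controls, it stood 1.92 above control at the low dose and 2.26 above at the high dose on the log2 scale, against -0.03 and 0.05 for Actb. High dose mouse 2 was the exception, with 884 scaled counts of B2m against 660.1 to 847 in controls and 4701 to 6161 in the other high dose mice. Its miR-196b and miR-196a stood at 1351 and 248 normalized counts, above all controls. Scaling lanes to all 4 mRNA probes, B2m among them, moved the median of all detected miRNAs to -0.20 at the low dose and -0.39 at the high dose. Both miR-196 members then still stood above control, with miR-196b at 0.50 and 0.42, but neither was called.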

How the data were processed

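MicroRNA barcodes were counted in the oviducts of 11 mice. The deposited table holds counts of each probe in each lane. As deposited, these estimated counts (so named since a quality value with decimals sits in the same columns) were all whole numbers of barcodes. No normalization by the authors is given in the sources used here. Of the 4 control mice planned, 1 was not analysed here.

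Counts were fitted with edgeR 4.0.16 (quasi-likelihood F-test, R 4.3.3) in 1 model with a mean per group, TMM scaling over the 205 detected miRNAs, Benjamini-Hochberg adjustment over them and a threshold of 0.05. The SE of a log2 change was its size over the square root of F. Counts were simulated in 5 sets, each with 40 detected miRNAs, drawn at random, raised or lowered alike at both doses. On them the fit called 97% (low dose) and 99% (high dose) of changes of 1 log2 unit. Of changes of 0.5 log2 units it called 55% and 63%. False calls made up 7.32% of its calls at the low dose and 3.57% at the high dose. These shares are averages over the miRNAs drawn and do not give the power for any member. Members, lists and tests were chosen with earlier results of these data known. The miRNAs named are the members, the listed relatives and markers, and the 5 nearest profiles per member. Mice of a group differed by a chi-square of 17.3 to 92.3 per degree of freedom, more than counting error alone gives. This check cannot tell separate animals from separate preparations of the same animal. Intervals and spreads from counting cover counting error only. Alternatives covered scaling, filters, background subtraction, DESeq2 1.42.0, limma-voom (limma 3.58.1), the one-way test that the design text names, a replicate number block and fits without each mouse in turn. Scaling to ligation controls, leaving out 3 lanes and the ratios between pairs were added after seeing the data. The correlations within pairs were not in the design either. RefSeq tables of GRCm38.p6 gave gene names, sequences and positions.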

Additional observations from a re-analysis of the deposited data

Results flagged for a closer look

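Among 20 sets of 4 values examined, 2 held a value far from the others, both for miR-10a and both at the top. The sets were the 4 members and their 6 ratios in each LPS-treated group. Chance puts a value apart in this way in about 1 in 20 sets, but these sets share mice and counts and are not independent. At the low dose, mouse 1 stood at 2868 normalized counts of miR-10a against 2420.0 to 2473 in the other 3, a gap of 0.881 of the whole range. At the high dose, mouse 1 stood at 3538 against 2763 to 2871, a gap of 0.86 of the range. High dose mouse 1 also had the highest normalized count of miR-10b (1343), the lowest miRNA total (451323) and the lowest ligation controls (geometric mean 4455) of all mice. Its unscaled miR-10a count, 2818, lay inside the range of the other high dose mice, 2680 to 2960. A normalized count is the count divided by the lane's scaling factor, 0.797 for this mouse, so its high normalized value came with the scaling. Whether this mouse truly had more miR-10a was not tested.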

How the results depend on the processing

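Each log2 change was recomputed under 16 alternatives besides leaving out mice. Both miR-196 members stood above control at both doses under all 16 and without any 1 mouse, whereas their calls varied. With the 4 mRNA probes, miR-196a was at 0.78 at the high dose (edgeR adjusted p = 0.35) and miR-196b at 0.50 (low dose) and 0.42 (high dose, across the groups 0.786), none called. High against low dose reversed to -0.11 for miR-196a, -0.08 for miR-196b and -0.18 for miR-10b, as did miR-10a at the high dose (-0.18). With the mRNA probes without B2m, miR-196a passed at the low dose (1.36) and across the groups (0.0234). High against low dose turned to -0.05 for both miR-196 members and -0.14 for miR-10b, the low dose to 0.24 for miR-10a and 0.25 for miR-10b, and the high dose to 0.11 for miR-10b. With the positive controls miR-196a passed at the low dose (1.26) and across the groups (0.0432), and signs turned for miR-10a at the low dose (0.13) and miR-10b (low 0.14, high 0.12, between doses -0.02). With the ligation controls miR-196a passed across the groups (0.0499) and miR-196b did not at the low dose (0.61) or across the groups (0.0546). nCounter-style scaling put miR-10b at the high dose at 0.01. Between doses miR-10b was -0.02 with no filter and -0.0017 after background subtraction, and with no filter miR-196b missed at the low dose (0.64, edgeR adjusted p = 0.0526).

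DESeq2 called miR-196a at the low dose (1.03) and across the groups (0.00617). The methods' one-way test, unadjusted, called it at the low dose (0.98) and across the groups (0.0402), and miR-10a between doses (0.23). Adjusted, it missed miR-196a at the high dose (1.06) and miR-196b at the low dose (0.68) and across the groups (0.0548). Without the 3 lanes with the most NEG_C counts, miR-196a (1.12) and miR-196b (0.73) missed at the high dose, as did miR-196b at the low dose (0.68) and across the groups (0.118), and miR-10b at the high dose was 0.02. Correlations of deviations from group means were -0.29 to 0.40 over 10 same-numbered pairs and -0.39 to 0.26 over 30 differently numbered pairs. Above 0.1 were 2 of the 10 and 9 of the 30, so numbers were not taken to pair mice. The highest, 0.40, was between low dose mouse 1 and high dose mouse 1. With a replicate block, miR-196a passed at the low dose (1.09) and across the groups (0.0216), the ratios of miR-196b to miR-10a and miR-10b missed (adjusted p = 0.0556 and 0.0833), and no other call of a member changed. As plain count ratios these 2 gave 0.105 and 0.112.

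The 12, 37 and 1 miRNAs called by edgeR at the low dose, high dose and between doses (7, 21 and 1 higher) became 0, 2 and 0 with the 4 mRNA probes (0 higher; 7, 26 and 5 unadjusted), 8, 18 and 0 with the positive controls (8 and 16 higher; 10 unadjusted between doses), 12, 16 and 0 with the mRNA probes without B2m (12 and 14 higher; 10 unadjusted between doses), 3 and 23 with the ligation controls (3 and 16 higher) and 3 and 21 without the NEG_C lanes. DESeq2 called 20 at the low dose and 4 between doses. The methods' test called 53, 68 and 33 unadjusted and 2 between doses adjusted.

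Leaving out 1 mouse gave 0.84 to 1.30 (low dose), 0.84 to 1.36 (high dose) and -0.19 to 0.25 (between doses) for miR-196a, with adjusted p of 0.0485 to 0.233 across the groups. miR-196b ran 0.46 to 0.86, 0.54 to 0.93, -0.03 to 0.13 and 0.0147 to 0.0989. miR-10a ran -0.12 to 0.03, 0.09 to 0.26 and 0.15 to 0.30, and miR-10b -0.11 to 0.03, -0.16 to 0.04 and -0.10 to 0.07. The ratio of miR-196b to miR-10a ran 0.02 to 0.23 and that to miR-10b 0.03 to 0.23. Counts of calls ran 3 to 13 (fewest without low dose mouse 4), 26 to 43 and 1 to 14 (most without high dose mouse 3). The cause of these changes was not tested. The control counts of miR-196a were at most 2.15 times the bound. After background subtraction its log2 change was 1.26 at the low dose (edgeR adjusted p = 0.0609) and 1.33 at the high dose (edgeR adjusted p = 0.0311). Any part of the low signal in its varying calls was not tested.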
